A study of Mus musculus with 4 samples.

Results

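Solute carriers are membrane proteins that move amino acids, sugars, metals, nucleosides, vitamins and ions across the cell surface and the membranes of organelles. The 151 genes described here were chosen by name and level: they were included when their symbol followed the Slc or Slco pattern and their level reached 1 TPM or more in each of 4 libraries, except for 13 iron, zinc, cationic amino acid, cystine, glucose and lactate carriers that the rule names and leaves out. TPM is transcript abundance scaled for transcript length and library size, so it can be compared between genes. This kept 151 of the 394 genes whose symbol matched, among 55536 Ensembl genes in the tables. All 151 were annotated as protein coding. Because the levels chose the genes, the levels below are a description and carry no test.

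The cells were bone-marrow-derived macrophages, which are macrophages grown in culture from bone marrow, of C57BL/6J mice. PolyA-selected RNA was sequenced in 1 group of 4 libraries, labelled biological replicates 1 to 4. Per the sample descriptions, the cells received 100 ng/mL of Lipid A for 12 h, then 12 h without it, then 100 ng/mL again for 60 min. Lipid A is the membrane anchor of lipopolysaccharide and the ligand of TLR4. Other label fields name the agent as lipoprotein A and give no washout, so the labels conflict. All 4 libraries carry the same donor label, sex and age were not collected, and nothing states that the cultures or animals were separate. The p-values below therefore measure the spread between these libraries, which may be technical. Untreated cells and cells treated once are not analysed here, so no level is a response to Lipid A.

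Macrophages take up dead cells, metals and nutrients, and many of their carriers sit in lysosomes rather than at the surface. Lysosomal carriers return the products of digestion to the cytosol, mitochondrial carriers of the Slc25 family link the mitochondrial matrix to the cytosol, and heavy-chain partners such as Slc3a2 bring amino acid exchangers to the surface. Carriers of neurotransmitters, bile acids and renal organic ions are best known from brain, liver and kidney.

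Counts on genes ranged from 23167140 in replicate 2 to 41453162 in replicate 3, and the upper limit for a gene with no count is 3 counts, or 0.0724 to 0.129 CPM (counts scaled to library size), for counting error only. All 10 macrophage markers were detected in each library, with a summed level of 16763 to 19813 TPM. Of 9 neutrophil markers 2, S100a8 and S100a9, were detected, Ly6g had no count, and the summed level was 133, 13.1, 106 and 12.7 TPM in replicates 1 to 4. None of the markers of stroma, erythroid cells, T cells, NK cells, basophils or mast cells reached 1 TPM in each library. Of the B cell markers Cd79b did, and of the dendritic cell markers Ccr7 did. In bulk RNA, fewer cells of a type and less RNA per cell cannot be told apart. Ribosomal RNA genes held 7.14%, 2.73%, 1.29% and 2.69% of TPM in replicates 1 to 4, highest in replicate 1.

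The 151 genes summed to 6739 ± 240 TPM (SD, n = 4), from 6382 to 6893. Their median level was 4.01 ± 0.12 on the log2(TPM + 0.1) scale, beside 4.09 ± 0.10 for all 10407 genes detected. At least 10 TPM in each library was reached by 94 of them (62.3%), against 57.9% of all detected genes, and at least 100 TPM by 10 (6.62%), against 10.48%. Over the 9704 detected protein-coding genes the median was 4.18 ± 0.10, and these shares were 60.3% and 10.9%. The 10 highest members held 47.2% of the summed level. Slc9a3r1, which is not a carrier, was among these 10. No other set of this size was compared, so this share is not shown to be a trait of the members.

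**Figure D1:**
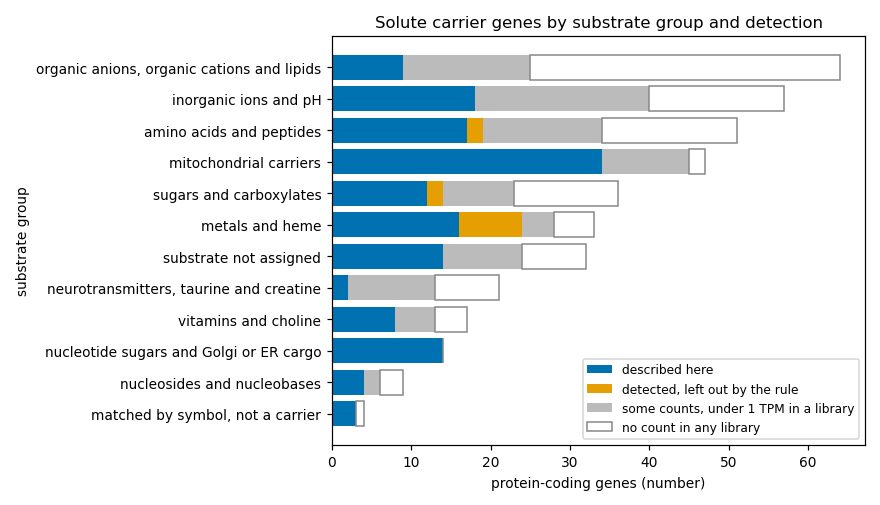
Number of protein-coding solute carrier genes (x axis) in each substrate group (y axis), split into those described here, those detected but left out by name, those under 1 TPM in a library and those with no count. All 14 nucleotide sugar and Golgi or ER genes were detected, against 9 of 64 for organic anions, organic cations and lipids. The groups were drawn with earlier results of these data known.

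The share of annotated genes that were detected differed widely between substrate groups. All 14 genes for nucleotide sugars and other Golgi or ER cargo were members. This depends on the grouping, which was drawn with earlier results of these data known. The Slc35 genes that were not detected were all placed outside this group. Of the 47 mitochondrial carriers 34 were members and 2 had no count in any library. Of 64 carriers of organic anions, organic cations and lipids 9 were members, and 39 had no count. Of 21 carriers of neurotransmitters, taurine and creatine 2 were members. By family, 34 of 47 Slc25 genes and 20 of 27 Slc35 genes were members, against 4 of 25 Slc22 genes, 1 of 14 Slco genes and 1 of 13 Slc5 genes. Of 11 carriers best known from other tissues 7 had no count in any library, among them Slc4a1, the erythrocyte anion exchanger, Slc34a1, the renal phosphate carrier, Slc2a2, the hepatic and islet glucose carrier, and Slc6a3, the dopamine carrier. The other 4, Slc6a4, Slc10a1, Slc2a4 and Slc12a1, had at most 12 counts in a library. These examples were chosen after the data were seen.

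**Figure D2:**
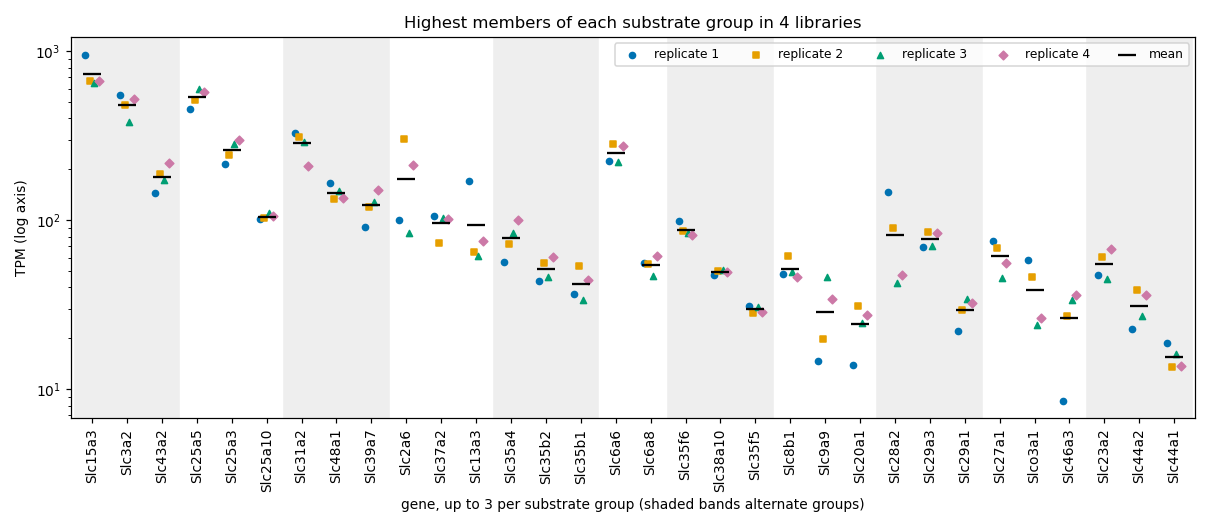
TPM on a log axis (y axis) of up to 3 of the highest members of each substrate group (x axis), with a symbol for each replicate and a bar for the mean. Slc15a3, Slc25a5 and Slc3a2 were the highest, with means of 734, 535 and 483 TPM, and the replicates of Slc2a6, Slc13a3 and Slc28a2 lie farther apart than those of Slc25a10 or Slc38a10.

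Carriers of amino acids and peptides held 27.5% of the summed level in 17 members, the largest mean share of the 12 groups. They summed to 2152, 1757, 1633 and 1876 TPM in replicates 1 to 4, beside 1461, 1672, 1748 and 1769 TPM for mitochondrial carriers, so the mitochondrial sum was the higher in replicate 3. Slc15a3, a lysosomal carrier of histidine and small peptides, was the highest of all members, with 955.89, 662.03, 650.67 and 665.44 TPM in replicates 1 to 4. Replicate 1 was high and the other 3 lay close together. An exon of Slc15a3 overlaps one of Tmem132a on the opposite strand, with a mean of 91.7 TPM, and the sources used here do not state whether counting used the strand. Slc3a2, the heavy chain that carries several amino acid exchangers to the surface, had 547.55, 479.46, 381.06 and 524.01 TPM. Slc43a2, a carrier of large neutral amino acids, had a mean of 181 ± 30.97 TPM. Light chains that pair with Slc3a2 had lower levels: Slc7a8, an exchanger of neutral amino acids, had a mean of 123 ± 67.7 TPM and Slc7a7, which exchanges cationic for neutral amino acids, 77.8 ± 11.8 TPM. Slc7a5, another such light chain, was at 6.25 ± 2.06 TPM, and Slc1a5, a glutamine carrier, at 3.63 ± 1.15 TPM. Among the lysosomal members, Slc38a7, which exports glutamine, Slc36a1 and Slc38a9, which takes part in amino acid sensing, had means of 33.5, 25.3 and 12.1 TPM.

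Mitochondrial carriers formed the largest group, with 34 members and 24.7% of the summed level. Slc25a5, an exchanger of ADP and ATP, had 457.64, 516.93, 595.28 and 570.99 TPM in replicates 1 to 4. Slc25a3, which brings phosphate into the matrix for ATP synthesis, had 216.55, 242.77, 282.87 and 297.89 TPM. Both were lowest in replicate 1. Slc25a10, a dicarboxylate carrier, was among the steadiest members, at 105 ± 3.71 TPM, a coefficient of variation of 3.54%. Slc25a11, the oxoglutarate and malate carrier, followed at 83.8 ± 8.87 TPM. Slc25a1, the citrate carrier, had 65.4 ± 15.8 TPM. At the low end of this group stood Slc25a53, at 1.62 ± 0.39 TPM, and Slc25a15, the ornithine carrier, at 2.10 ± 0.58 TPM.

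Metal and heme carriers included 16 members, while 8 detected genes of the same group were among those left out by name. Slc31a2, a copper carrier of endosomes and lysosomes, had 329.25, 309.23, 291.98 and 208.7 TPM in replicates 1 to 4, lowest in replicate 4. Slc31a1, which takes copper up at the surface, had 95.2 ± 9.92 TPM. Slc48a1, which moves heme out of the phagolysosome, had 146 ± 14.8 TPM. Slc39a7, which releases zinc from the ER, had 90.95, 119.73, 127.93 and 150.37 TPM. The other zinc and magnesium carriers of the group had means from 2.51 to 28.9 TPM.

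Sugar and carboxylate carriers had 12 members. Slc2a6, a hexose carrier family member located in lysosomes, had the highest mean, and Slc37a2, an ER sugar phosphate exchanger, had 105.23, 73.52, 103.34 and 101.29 TPM. Slc13a3, a sodium-coupled carrier of dicarboxylates such as succinate, had a mean of 93.1 ± 52.3 TPM. Slc16a6, a monocarboxylate family member, had 71.97 ± 13.1 TPM. Slc2a3, a glucose carrier of the surface, was near the low end of the group at 2.41 ± 1.15 TPM.

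Nucleotide sugar and other Golgi or ER carriers had means from 4.09 to 78.4 TPM. None of the 14 passed edgeR's test of variability, beside 2.61% of all genes tested, which is not a result about this group. The highest were Slc35a4 at 78.4 ± 18.2 TPM, Slc35b2, which supplies the sulfate donor PAPS to the Golgi, at 51.6 ± 8.20 TPM, Slc35b1 at 42.2 ± 8.87 TPM and Slc35c2 at 31.9 ± 3.60 TPM. Slc6a6, the taurine carrier, and Slc6a8, the creatine carrier, were the only members of their group, with 251 ± 33.2 and 54.7 ± 6.05 TPM. Among nucleoside carriers Slc28a2, a sodium-coupled carrier of purine nucleosides, had 81.4 ± 48.2 TPM. Slc29a3, a nucleoside carrier of lysosomes, had 77.4 ± 8.44 TPM, Slc29a1, its relative at the surface, 29.5 ± 5.22 TPM and Slc43a3, a purine nucleobase carrier, 26.1 ± 6.70 TPM.

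The 18 carriers of inorganic ions were led by Slc8b1, the mitochondrial sodium and calcium exchanger, at 51.2 ± 6.92 TPM. Slc9a9, an endosomal sodium and proton exchanger, had 28.8 ± 14.4 TPM and Slc20a1, a phosphate carrier, 24.3 ± 7.34 TPM. The 8 vitamin and choline carriers were led by Slc23a2, which takes up ascorbate, at 55.2 ± 10.8 TPM. The choline carriers Slc44a2 and Slc44a1 had 31.1 ± 7.45 and 15.6 ± 2.50 TPM, and Slc52a2, a riboflavin carrier, 5.22 ± 0.35 TPM. Vitamin and choline carriers had the lowest median of the groups, 2.26 ± 0.16 on the log2 scale. Of the 9 carriers of organic anions, organic cations and lipids the highest were Slc27a1, a fatty acid transport protein, at 61.4 ± 13.3 TPM, Slco3a1 at 38.6 ± 16.3 TPM, Slc46a3, a lysosomal carrier, at 26.5 ± 12.5 TPM and Slc17a5, the lysosomal sialic acid carrier, at 14.5 ± 3.52 TPM. Transcripts annotated as protein coding held 2.94% ± 2.24 of the Slc27a1 level. By those transcripts alone Slc27a1 was below Slco3a1, Slc46a3 and Slc17a5 in each library. Among 14 members with no assigned substrate, Slc35f6, Slc38a10, Slc35f5 and Slc45a4 had means of 87.9, 49.3, 29.7 and 29.3 TPM. Slc38a10 had the lowest coefficient of variation of all members, 2.72%. The symbol pattern also took in 3 genes that are not carriers: Slc9a3r1, a scaffold protein, at 132 ± 7.13 TPM, Slc4a1ap at 23.1 ± 1.99 TPM and Slc7a6os at 19.3 ± 2.20 TPM.

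At the threshold, the members with the lowest minimum were Slc35g1 and Slc22a15, each with 1.04 TPM in its lowest library, Slc25a53 with 1.25 and Slc25a15 with 1.3 TPM. Just outside stood Slc12a2, a sodium, potassium and chloride carrier, at 0.91 TPM, Slc16a1, a lactate carrier, at 0.87 TPM, Slc18a1 at 0.86 TPM and Slc17a9 at 0.85 TPM. Those 4 had means of 1.54, 1.15, 1.27 and 1.76 TPM, so their levels overlap those of the lowest members.

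Variability between libraries was tested with edgeR as each gene's deviance over the 4 libraries, against the spread of genes of like abundance and adjusted by Benjamini-Hochberg over all genes. Of the 151 members 8 varied at an adjusted p up to 0.05, beside 305 of 11679 genes tested, 2.61%. The median coefficient of variation was 17.1% for the members and 17.05% for all detected genes. The varying members were Slc28a2, Slc13a3, Slc2a6, Slc7a8, Slc9a9, Slc38a2, Slc46a3 and Slco3a1. They carry nucleosides, dicarboxylates, hexoses, amino acids, protons and organic anions. They came from 5 of the 12 groups, and the other 7 groups had no call, which at this background and these group sizes is not a result about the groups. Promoters of the varying members are printed here for the 7 that have a window in the table, to show the letters that the motif search covered. Each is 300 bases on its gene's strand from RefSeq, build GRCm38.p6, and capitals mark matches to the motifs named below.

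Slc28a2 (chr2:122426185-122426484, + strand): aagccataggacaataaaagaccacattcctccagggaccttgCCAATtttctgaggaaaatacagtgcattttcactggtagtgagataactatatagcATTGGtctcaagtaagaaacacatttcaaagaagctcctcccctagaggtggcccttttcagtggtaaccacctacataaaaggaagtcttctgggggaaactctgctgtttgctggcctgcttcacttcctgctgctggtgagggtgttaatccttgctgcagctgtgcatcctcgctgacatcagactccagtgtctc
Slc13a3 (chr2:165473148-165473447, - strand): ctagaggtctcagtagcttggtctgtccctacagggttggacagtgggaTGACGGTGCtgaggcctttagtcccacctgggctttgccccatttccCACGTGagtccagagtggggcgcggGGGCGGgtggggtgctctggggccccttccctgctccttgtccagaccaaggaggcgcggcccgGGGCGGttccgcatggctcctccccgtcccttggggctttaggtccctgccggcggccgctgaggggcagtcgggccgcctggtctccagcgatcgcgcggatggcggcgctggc
Slc7a8 (chr14:54781837-54782136, - strand): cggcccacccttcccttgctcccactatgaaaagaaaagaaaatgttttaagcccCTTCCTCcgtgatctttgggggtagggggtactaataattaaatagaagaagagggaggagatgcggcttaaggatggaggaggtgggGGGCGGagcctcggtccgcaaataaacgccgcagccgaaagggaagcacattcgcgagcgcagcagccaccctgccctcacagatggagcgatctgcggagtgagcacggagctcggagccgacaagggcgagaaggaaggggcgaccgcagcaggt
Slc2a6 (chr2:27027949-27028248, - strand): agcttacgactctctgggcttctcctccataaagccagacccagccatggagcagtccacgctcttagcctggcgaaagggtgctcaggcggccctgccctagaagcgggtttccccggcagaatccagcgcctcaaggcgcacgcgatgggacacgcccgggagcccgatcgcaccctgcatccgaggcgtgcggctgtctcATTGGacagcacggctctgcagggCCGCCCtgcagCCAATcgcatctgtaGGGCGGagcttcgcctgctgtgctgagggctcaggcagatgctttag
Slc38a2 (chr15:96699679-96699978, - strand): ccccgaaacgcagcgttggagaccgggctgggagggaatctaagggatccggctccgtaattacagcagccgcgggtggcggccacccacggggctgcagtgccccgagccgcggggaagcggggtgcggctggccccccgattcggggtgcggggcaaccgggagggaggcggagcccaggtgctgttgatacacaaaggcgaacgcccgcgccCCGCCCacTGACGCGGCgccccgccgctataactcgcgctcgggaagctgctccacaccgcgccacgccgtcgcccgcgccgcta
Slc9a9 (chr9:94669642-94669941, + strand): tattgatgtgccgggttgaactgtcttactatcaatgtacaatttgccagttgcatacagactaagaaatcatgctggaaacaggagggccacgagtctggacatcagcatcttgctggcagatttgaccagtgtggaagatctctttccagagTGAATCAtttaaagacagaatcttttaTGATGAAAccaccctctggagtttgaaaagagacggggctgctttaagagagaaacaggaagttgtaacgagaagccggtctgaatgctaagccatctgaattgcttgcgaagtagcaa
Slc46a3 (chr5:147894766-147895065, - strand): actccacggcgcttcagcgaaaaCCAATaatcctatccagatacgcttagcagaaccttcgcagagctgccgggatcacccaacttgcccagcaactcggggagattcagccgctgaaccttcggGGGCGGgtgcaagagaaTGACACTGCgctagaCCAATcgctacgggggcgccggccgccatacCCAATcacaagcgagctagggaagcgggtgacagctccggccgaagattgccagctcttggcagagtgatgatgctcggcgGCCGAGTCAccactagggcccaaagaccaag

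Motifs were searched on both strands, with overlap between motifs allowed. They were the TATA box TATAAA, the CCAAT box, the GC box GGGCGG, the E-box CACGTG, the AP-1 site TGANTCA, the ATF4 and C/EBP composite TGATGNAA, the antioxidant response core TGACNNNGC, the PU.1 site GAGGAAG, an interferon response core and a kappa-B consensus. RefSeq windows were found for 116 of the 151 members, 157 windows in all. The motif GGGCGG was in 71.97% of the members' windows and 35.7% of all 32851, CACGTG in 15.9% and 7.15%, TGACNNNGC in 19.1% and 12.4%, and the kappa-B consensus in 10.2% and 8.46%. CCAAT was in 29.9% and 37.4%, TATAAA in 3.82% and 13.6%, TGANTCA in 5.10% and 7.81%, TGATGNAA in 2.55% and 3.97%, GAGGAAG in 9.55% and 13.6%, and the interferon response core in 1.91% and 3.44%. The first 4 of these motifs were more frequent in the members' windows and the other 6 less frequent. The median GC content was 61.3% in the members' windows and 52.7% in all. The 32851 windows were not limited to detected genes, and windows of detected genes alone were not compared. These differences therefore cannot be read as particular to solute carriers. Of the 7 promoters printed, 5 held GGGCGG: those of Slc13a3, Slc7a8, Slc2a6, Slc38a2 and Slc46a3. CCAAT was in those of Slc28a2, Slc2a6 and Slc46a3, TGACNNNGC in those of Slc13a3, Slc38a2 and Slc46a3, CACGTG in that of Slc13a3 and GAGGAAG in that of Slc7a8. The Slc9a9 promoter held TGANTCA and TGATGNAA and none of the other motifs, and the Slc28a2 promoter held CCAAT alone. A match is a description of these letters only.

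**Figure D3:**
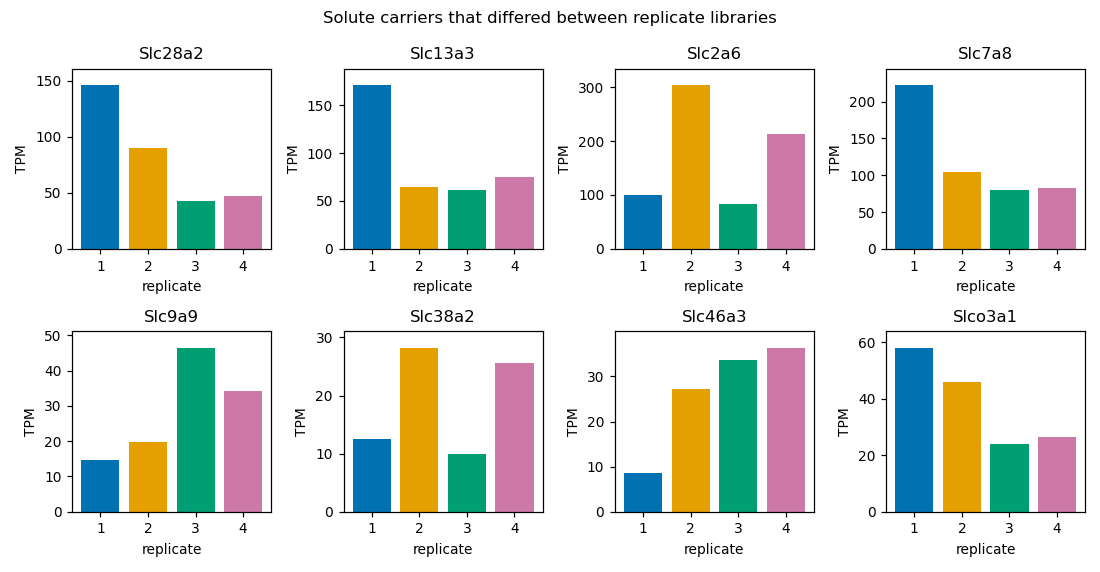
TPM (y axis, from 0) of the 8 members that varied, in replicates 1 to 4 (x axis). Slc28a2, Slc13a3, Slc7a8 and Slco3a1 were highest in replicate 1, Slc46a3 was lowest there, and Slc2a6 and Slc38a2 were highest in replicates 2 and 4.

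Slc28a2 had 146.23, 89.81, 42.33 and 47.38 TPM in replicates 1 to 4, and its highest library was 3.86-fold above its lowest in normalised counts (edgeR adjusted p = 5.78e-05). Slc13a3 had 171.07, 64.78, 61.19 and 75.4 TPM, so replicate 1 stood above 3 close libraries (adjusted p = 0.00112). Slc7a8 had 222.75, 104.26, 79.78 and 83.27 TPM (adjusted p = 0.00369). All of these were highest in replicate 1. Slco3a1, an organic anion carrier, had 57.99, 46.06, 24.08 and 26.31 TPM, high in replicates 1 and 2 (adjusted p = 0.00743). Slc46a3 went the other way, with 8.56, 27.23, 33.69 and 36.35 TPM, low in replicate 1 (adjusted p = 0.00672). Slc9a9 had 14.7, 19.77, 46.45 and 34.33 TPM, high in replicates 3 and 4 (adjusted p = 0.00395).

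Slc2a6 had 100.14, 304.22, 83.53 and 212.87 TPM, high in replicates 2 and 4 (edgeR adjusted p = 0.00139). Slc38a2, a sodium-coupled carrier of small neutral amino acids, had 12.5, 28.21, 9.86 and 25.67 TPM, also high in replicates 2 and 4 (adjusted p = 0.00445). Of 12 genes of the amino acid and ATF4 response, 3 varied, beside 2.61% of all genes tested. This response is the program that cells run when amino acids are short. Trib3, a pseudokinase, had 11.58, 30.01, 9.02 and 25.51 TPM. Phgdh, the first enzyme of serine synthesis, had 1.03, 6.55, 2.95 and 6.7 TPM. Chac1, which breaks down glutathione, had 3.37, 9.32, 1.52 and 6.97 TPM. These 3 genes were also higher in replicates 2 and 4 than in 1 and 3. Atf4 itself had 214.27, 310.26, 203.12 and 259.22 TPM and did not pass the test. The rest of the list did not pass either. Of these, Asns, Ddit3, Ddit4, Psat1 and Shmt2 were higher in replicates 2 and 4, while Cebpb, Eif2ak4 and Nupr1 did not follow that pattern. The share of all genes higher in replicates 2 and 4 than in 1 and 3 was not computed. The pattern is therefore not shown to be particular to this list, which was chosen with earlier results of these data known. The neutrophil markers S100a8 and S100a9 were higher in replicates 1 and 3. The part of these differences, and of the ribosomal RNA share, in the members' values was not tested.

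Replicate 1 was the library farthest from the others for 5 of the 8 varying members, above them in 4 and below in 1. It was the farthest for 32.5% of all members and for 32.3% of all genes tested. Without replicate 1 only Slc2a6 and Slc38a2 passed, 2 members beside 1.12% of all genes. Without replicate 2 the count was 5, beside 1.78%, without replicate 3 it was 4, beside 1.76%, and without replicate 4 it was 8, beside 1.88%. Without replicate 2 Slc2a6, Slc38a2 and Slc9a9 did not pass, and without replicate 3 Slco3a1 did not pass either. Slc12a7, a potassium and chloride carrier named after its value was seen, missed the threshold, with 29.37, 16.78, 15.75 and 14.45 TPM (edgeR adjusted p = 0.0727).

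The deposited records give replicates 1 and 2 as made from 6 read files each, and replicates 3 and 4 from 4 each. No member differed between those pairs of libraries by edgeR's quasi-likelihood test, 0 of 151, beside 0.00% of 12667 genes. At an unadjusted p under 0.05 there were 8 members and 897 genes. DESeq2 called 3 members, beside 103 of the 12667 genes, 0.813%: Slc28a2 was lower with 4 read files, by a log2 difference of -1.48 (adjusted p = 0.0019), Slco3a1 lower by -1.14 (adjusted p = 0.00821) and Slc9a9 higher by 1.18 (adjusted p = 0.0007). Their edgeR log2 differences were -1.45 (SE 0.31), -1.12 (SE 0.23) and 1.20 (SE 0.19), with edgeR adjusted p of 0.596, 0.586 and 0.414. These SE were worked back from the F statistic of the same test, so they are not a separate measure of precision. Over all the settings tried, adjusted p ran from 0.0019 to 0.962 for Slc28a2, from 0.00821 to 0.999 for Slco3a1 and from 0.0007 to 0.962 for Slc9a9. With no filter on low counts edgeR called 1 member, Slc9a9, beside 35 of 21041 genes, 0.166%. The TPM values of these 3 genes did not overlap between the pairs of libraries. A test of the same pairs chose them, so this adds no support. The share of all genes without overlap was not computed.

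A second transcript quantification was deposited for the same reads, so a difference between the quantifications measures processing and not cells. Over all genes the second was lower by a median of -0.31 on the log2(TPM + 0.1) scale, and over the members by -0.31. Relative to that shift, 75 members were lower and 76 higher. Of the members 1 was called by limma at an adjusted p up to 0.05 and a log2 difference of at least 1, beside 349 of 10399 genes, 3.36% (0.673% higher and 2.68% lower in the second). This was Slc15a4, a lysosomal peptide and histidine carrier that takes part in signalling by nucleic acid sensing receptors. The calls set each difference against 0, so the shift over all genes counts towards them and towards the split by direction. Slc15a4 had 29.57, 47.32, 69.14 and 114.8 TPM in the first quantification and 21.2, 27.8, 31.4 and 32.1 TPM in the second. The libraries lay far apart in the first and close together in the second. The difference was -1.05 (SE 0.14, limma adjusted p = 7.8e-12), and without replicate 4 it was -0.79, short of the threshold of 1. Measured from the shift of -0.31 over all genes, the difference of Slc15a4 in all 4 libraries would also fall short of 1.

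**Figure D4:**
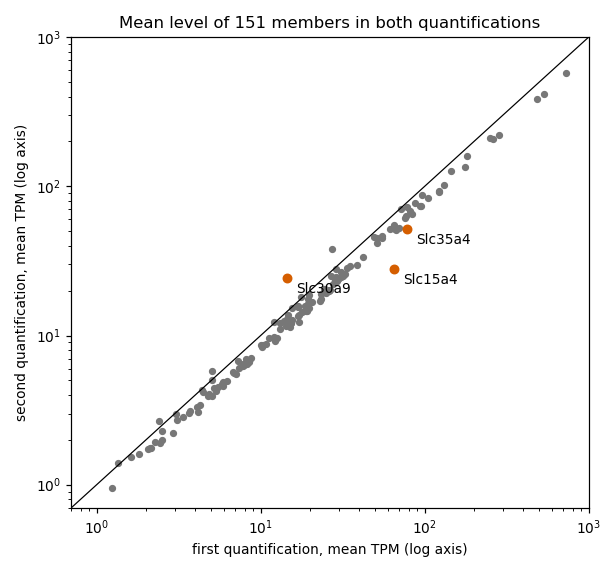
Mean TPM of each of the 151 members in the first quantification (x axis, log) and in the second (y axis, log), with the line of equal values. Most members lie just below the line, with Slc15a4 well below it and Slc30a9 above it.

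The short transcript Slc15a4-211, of 166 bases and annotated as a processed transcript, held 0%, 0%, 53.43% and 67.89% of the gene's TPM in replicates 1 to 4 in the first quantification. In the second it held 0%, 6.21%, 0% and 0%. The full-length coding transcript Slc15a4-201 held 78.85%, 60.11%, 34.18% and 20.38% in the first and 81.3%, 64.8%, 78.3% and 73.7% in the second. In expected counts, which are not divided by length, Slc15a4 was level: normalised CPM were 54.02, 59.9, 45.9 and 50.05, and it did not pass the test of variability. At a log2 difference of at least 0.58 the calls were 3 of 151 members, beside 628 of 10399 genes, 6.04%, adding Slc35a4 at -0.59 (SE 0.14, limma adjusted p = 0.000623) and Slc30a9, a zinc carrier family member, at 0.75 (SE 0.15, limma adjusted p = 8.19e-06). Measured from the shift of -0.31 over all genes, Slc30a9 would lie past a difference of 1 and Slc35a4 short of 0.58.

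**Figure D5:**
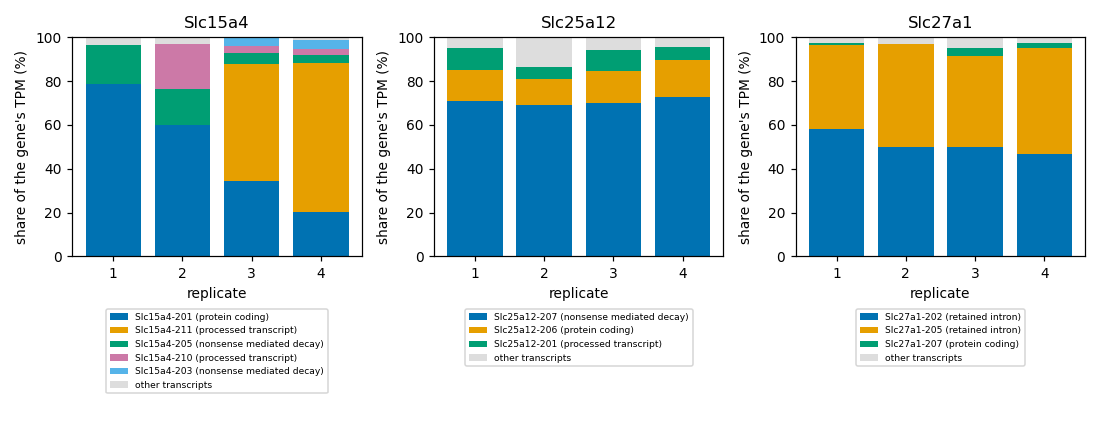
Share of the gene's TPM in percent (y axis) held by each transcript of Slc15a4, Slc25a12 and Slc27a1 in replicates 1 to 4 (x axis), first quantification. Slc15a4-211 appears in replicates 3 and 4 and not in 1 and 2, while the leading transcripts of Slc25a12 and Slc27a1 hold similar shares in all 4.

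One transcript held at least 90% of the gene's TPM in 58 members (38.4%), against 39.6% of 9704 detected coding genes. The leading transcript was not protein coding in 8 members (5.30%), against 5.78%. In Slc25a12, a mitochondrial aspartate and glutamate carrier, the transcript Slc25a12-207, annotated as a target of nonsense-mediated decay, held 70.97%, 69.09%, 70.12% and 72.91%. Its coding transcripts summed to 4.47, 5.81, 4.12 and 5.1 TPM, beside a gene level of 34.9 ± 9.34 TPM. In Slc27a1 the retained-intron transcript Slc27a1-202 held 58.19%, 49.68%, 49.83% and 46.89%, and coding transcripts held 2.94% ± 2.24, in the first quantification. The quantifications differed here: the coding transcript Slc27a1-207 held 1.7% ± 1.59 in the first and 15.9% ± 4.36 in the second. Most of the gene-level TPM of Slc25a12 and Slc27a1 thus came from transcripts not annotated as protein coding. Coding transcripts alone reached 1 TPM in each library in 148 of the 151 members. Slc27a1 was not among these, with 1.29, 0.51, 2.67 and 1.94 TPM from coding transcripts in the first quantification.

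The leading transcript differed between the quantifications in 16 members (10.6%), against 8.82% of coding genes. Slc38a10-201 held 71.7% ± 4.77 in the first quantification and 10.1% ± 3.46 in the second, where Slc38a10-216 held 62.7% ± 0.40. Slc6a8-203 held 54.3% ± 5.73 in the first and 29.1% ± 15.9 in the second, where Slc6a8-201 held 31.1% ± 1.82. Slc25a45-206 held 46.3% ± 6.36 and 36.5% ± 6.17, and Slc25a45-201 held 50.1% ± 5.08 in the second. Slc25a51-201 held 48.3% ± 9.33 in the first and 21.2% ± 17.4 in the second, where Slc25a51-202 held 49.7% ± 12.7. In Slc25a22, the mitochondrial glutamate carrier, Slc25a22-203 led the first with 33.3% ± 6.88 and held 26.1% ± 5.58 in the second, where Slc25a22-204 held 29.8% ± 1.84. Slc35a4-205, of 312 bases, held 37.1% ± 10.7 in the first and 28.9% ± 11.4 in the second, where Slc35a4-201 held 32.4% ± 2.91.

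Exons of 19 members overlapped those of another detected gene, on the opposite strand in 18. They include Slc7a7 with Oxa1l, Slc48a1 with Hdac7 and Slc16a6 with Amz2. Reads of such pairs cannot be told apart where counting ignores the strand, so these levels are uncertain.

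Genes that work with the members were read from lists. Of 30 measured carriers that have other symbols 20 were detected, led by Mpc1, a subunit of the mitochondrial pyruvate carrier, at 169 ± 38.4 TPM, and 1 varied. That was Nipal3, a magnesium carrier family member, with 3.79, 10.14, 10.56 and 14.16 TPM. Of 7 chaperones and partners 5 were detected, and Emb, a partner of monocarboxylate carriers, varied with 10.47, 38.84, 26.7 and 38.89 TPM. Both were lowest in replicate 1. Of 21 genes of lysosomal amino acid sensing 19 were detected, led by Lamtor1 at 237 ± 19.3 TPM, and none of the 20 tested varied by edgeR. The share over all genes tested was 2.61%, so in lists this short these counts are not a result about the lists.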

How the data were processed

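PolyA RNA-seq was measured in 4 libraries of 1 group. For each library the authors deposited a gene table and a transcript table (the first quantification), and another transcript table (the second). Per the deposited records the assembly was mm10 and the annotation GENCODE M21. The first was derived from transcriptome alignments and the second directly from reads. The programs are not named, and the column names are those RSEM and kallisto write. Per the file headers the expected counts are not normalised. The deposited TPM values add up to one total in every library, as the authors scaled them, and the share of a transcript in its gene is deposited in percent. Expected counts on genes were 26613690, 23167140, 41453162 and 34946569, and phiX held 0.139%, 0.293%, 0.0790% and 0.0848% of counts.

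Members, substrate groups and lists were chosen with earlier results of these data known. Slc9a3r1, Slc9a3r2, Slc7a6os and Slc4a1ap were set apart as no carriers, and Slc10a3 and Slc7a4 as without a substrate, after the members were seen. Named genes were the 4 highest per group, members called by a test, the 4 on each side of the threshold, up to 6 with divided or differing leading transcripts, and up to 4 per list; 1 gene that this rule names is not reported here.

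Counts were rounded. Variability used edgeR 4.0.16 in R 4.3.3 (filterByExpr, TMM, trended dispersion, intercept only, deviance against chi-square). The common biological coefficient of variation was 22.4%. Read files were compared by edgeR's quasi-likelihood test, with DESeq2 1.42.0 as an alternative, and quantifications by limma 3.58.1 on log2(TPM + 0.1) differences within libraries, with a trend. All p-values were adjusted by Benjamini-Hochberg over all genes tested, and the scripts were tested on simulated data. Promoters were read from RefSeq windows of 300 bases. Plots used matplotlib 3.10.9.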

Additional observations from a re-analysis of the deposited data

Results flagged for a closer look

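In 3 of the 54 members that the rule for named genes takes 1 library lay far from the other 3, by Dixon's criterion for 4 values. Chance gives such a value in about 1 of 20 groups, and 509 of all 10407 detected genes (4.89%) met it. The 3 make up 5.56% of the 54, near that share, so the count is not a result about the members. Some of the 54 were named because they varied between libraries. Slc13a3 had 171.07 TPM in replicate 1, against 61.19 to 75.4 TPM in the others. Slc15a3 had 955.89 TPM in replicate 1, against 650.67 to 665.44 TPM. Slc37a2 had 73.52 TPM in replicate 2, against 101.29 to 105.23 TPM. Of these Slc13a3 alone passed the test of variability.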

How the results depend on the processing

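The number of members was 115 to 157 at minimums from 5 to 0.5 TPM, 148 in the second quantification, 157 by mean TPM and 151 to 154 without 1 replicate. It was 148 with coding transcripts only, an alternative chosen after seeing the data. All 8 varying members were also called with RLE size factors, DESeq2's dispersion trend, no filter on low counts and the second quantification. Leaving out 1 replicate gave 2 to 8, with 2 without replicate 1, 5 without replicate 2 and 4 without replicate 3; fewer libraries enter those tests. Between libraries with 6 and with 4 read files the count was 0, but 3 by DESeq2 (0.813% of all genes) and 1 with no filter on low counts (0.166% of all genes; Slc9a9, edgeR adjusted p = 0.0278, over all settings 0.0007 to 0.962); the cause was not tested. Between quantifications the count was 1, but 3 at a log2 difference of 0.58 (6.04% of all genes) and 0 to 1 without 1 replicate. Those counts set differences against 0 and so include the shift over all genes. With the shift of -0.31 over all genes removed, an alternative chosen after seeing the data, 2 of 12 group medians and 5 of 54 named levels of the second quantification differed from the first by more than 1 SD; as deposited, 12 and 31 did. No paired analysis was possible because there is 1 group, so libraries have no other group to be paired with; the quantifications were compared within each library. Depth limits the lowest members: Slc25a53 had 39 to 97 counts per library.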

Other observations

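Some members lie near each other in the genome (GENCODE M21, mm10), with less than 100000 bases between them, in 7 pairs. Other genes may lie between the members of a pair, and no other set of genes was compared. The copper carriers Slc31a2 and Slc31a1 are 62316 bases apart on chromosome 4, with means of 285 and 95.2 TPM. The amino acid carriers Slc38a1 and Slc38a2 are 44479 bases apart on chromosome 15, with means of 19.4 and 19.1 TPM, and of these Slc38a2 alone passed the test of variability. The difference in variability between Slc38a1 and Slc38a2 was not tested. On the X chromosome Slc25a43 and Slc25a5 are 18449 bases apart, with means of 7.31 and 535 TPM. Slc35b2 and Slc29a1 are 17529 bases apart on chromosome 17, with means of 51.6 and 29.5 TPM. The carnitine carrier Slc22a5 and its relative Slc22a4, 91463 bases apart on chromosome 11, had means of 4.84 and 1.81 TPM.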
